A study of Mus musculus with 40 samples.

Results

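Mitochondria take in nearly all of their proteins from the cytosol, and the genes described here encode the import machinery and the chaperones that fold the imported chains. The receptors and the Tomm40 channel of the outer membrane pass precursors on to small Timm chaperones of the space between the membranes and to translocases of the inner membrane. In the matrix the chaperone Hspa9 pulls a chain in, helped by nucleotide exchange factors (Grpel1, Grpel2) and J-type partners (Dnajc19, Pam16), and Hspd1 with its lid Hspe1 then folds it. The heart muscle cell, which depends on oxidative metabolism, is rich in mitochondria.

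Genes were taken by symbol: those that begin with Timm or Tomm and a digit, and the 7 matrix genes named above (Grpel1, Grpel2, Hspa9, Dnajc19, Pam16, Hspd1, Hspe1). Of the 23420 symbols counted, 31 matched. Of these, 29 passed the filter on low counts both in libraries of polyadenylated RNA (mRNA) and in libraries of RNA that came down with Ago2 (RISC). The other two were Timm8a2, with at most 2 counts in any library, and Tomm20l, with at most 11.

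The study asked how overexpression of the microRNA miR-378a changes the messages of the mouse heart, with and without pressure overload. Hearts came from 7 miR-378a-overexpressing (TG) mice whose aorta had been constricted (transverse aortic constriction, TAC) for 2 weeks, 3 TG sham mice, 7 non-transgenic (ntg) TAC mice and 3 ntg sham mice, all FVB/N, labelled male and aged 12 weeks. A coronal slice lacking the right ventricle was used. From each of these 20 hearts came both kinds of library. The promoter that drives the transgene is not given in the sources used here. Headers of the tables for all libraries mark the sham hearts as having had no surgery, so whether they were operated is unsettled.

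The mRNA libraries held 9980462 to 25456906 gene counts and the RISC libraries 7550054 to 25366924, of which 48.5% to 62.3% fell on the ribosomal precursor Rn45s. Levels are TMM-scaled CPM. Mir378, the precursor's gene, was at 0 counts in all 40 libraries (a floor of 3 counts per library), so these counts do not check the transgene. The heart muscle marker Myh6 was abundant in mRNA, at 28020 to 41360 CPM in TG hearts and 28143 to 41804 CPM in ntg hearts. Xist stood at 1.03 to 3.48 CPM in TAC mRNA libraries, against 117 to 142 CPM in sham mRNA libraries, and a sum over 4 Y-linked genes gave the reverse, 79.9 to 122 CPM after TAC, against 0.216 to 4.88 CPM in sham hearts. An effect of TAC therefore cannot be told apart from that of sex, although all mice are labelled male. Adipocyte markers (mean log2 CPM) stood at 1.63 ± 0.59 in TG sham mRNA, against 4.15 ± 0.03 in ntg sham mRNA (SD, n = 3 each), and at 1.76 ± 0.85 in TG TAC against 2.08 ± 1.17 in ntg TAC (n = 7 each). None of the 10 markers was at 0 in all libraries of a group. Fits with this level as a covariate are given where they end a call. In heart slices, fewer cells of a type and less RNA per cell cannot be told apart.

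The levels of the genes per kilobase of exon spanned a wide range. In ntg sham mRNA Hspa9 led with 199 ± 13.5 CPM per kilobase, followed by Timm23, the channel of the inner membrane, with 190 ± 28.0, and by the small subunits Tomm7 (179 ± 6.89) and Tomm5 (172 ± 3.49; SD, n = 3). These 4 lay within a range that their SDs bridge from neighbour to neighbour. Of the nucleotide exchange factors, Grpel1 stood at 38.1 ± 2.30 CPM per kilobase and Grpel2 at 4.73 ± 0.45. Below Grpel2 in the order stood only Tomm20l (0.32 ± 0.15) and Timm8a2, which had 0 counts in all 3 ntg sham mRNA libraries.

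Several of these genes share ground with others. Exons of Grpel1 overlap those of Tada2b on the other strand over 408 of 3338 bases, and those of Dnajc19 overlap Fxr1 over 91 of 1015. Timm13 (Tmprss9), Timm8b (AU019823), Tomm40l (Nr1i3), Tomm6 (Gm14872) and Timm9 (Tomm20l) also have such a neighbour. The libraries keep no strand. Reads in a stretch shared by several genes, and reads with several places in the genome, stand in rows of their own and in no gene's count, which leaves these genes, and Hspd1, Hspe1 and Timm23 with their near copies, uncertain in level.

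The Ago2-bound RNA of Grpel1 rose in TG hearts, in sham and in TAC. That it rises in RISC and not in mRNA was known when the genes were chosen. Its p-values, ranks and refits therefore describe this rise and are no independent support for it. The product of Grpel1 releases the nucleotide from Hspa9 so that the motor can bind the next stretch of the incoming chain. The gene lies on chromosome 5 of mm10, 36465185 to 36474077, plus strand. In RISC of sham hearts it read 46.3, 39.3 and 33.8 CPM in TG, against 18.2, 21.0 and 22.1 CPM in ntg. The lowest TG heart lay above the highest ntg heart, and the log2 fold change was 0.96 (SE 0.13, adjusted p = 3.51e-06; quasi-likelihood test of edgeR, Benjamini-Hochberg adjusted over all genes, as throughout). In RISC of TAC hearts the lowest, median and highest values were 36.4, 38.3 and 39.2 CPM in TG, against 18.5, 21.6 and 23.8 CPM in ntg. Again the groups did not overlap, and the log2 fold change was 0.85 (SE 0.08, adjusted p = 3.64e-09). The overlapping neighbour Tada2b gave RISC log2 fold changes of 0.00 in sham hearts (SE 0.15, adjusted p = 0.998) and 0.07 in TAC hearts (SE 0.10, adjusted p = 0.708), with 17.5 to 18.3 CPM in TG sham RISC, against 16.5 to 19.2 CPM in ntg sham RISC.

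The polyadenylated RNA of Grpel1 was not higher in TG hearts. In sham hearts it read 116, 111 and 105 CPM in TG, against 118, 133 and 129 CPM in ntg (log2 fold change -0.20; SE 0.09; adjusted p = 0.110). All 3 TG values lay below the ntg values, though the difference was not called. After TAC the values were 94.4, 99.0 and 108 CPM in TG, against 96.1, 112 and 128 CPM in ntg. These ranges overlapped, and Grpel1 mRNA fell by 0.17 on the log2 scale (SE 0.06, adjusted p = 0.0299). That call was lost when TG TAC heart 3, 5 or 7 or ntg TAC heart 1 or 2 was left out (log2 fold change -0.16 to -0.14, adjusted p 0.0505 to 0.0724). The sham difference was called (-0.23, adjusted p = 0.0161) once the length slope described below was a covariate. In mRNA the overlapping neighbour Tada2b was higher in TG TAC than in ntg TAC hearts (log2 fold change 0.34, SE 0.08, adjusted p = 0.00307). In sham hearts Tada2b gave 0.32 (SE 0.12, adjusted p = 0.0715).

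**Figure D1:**
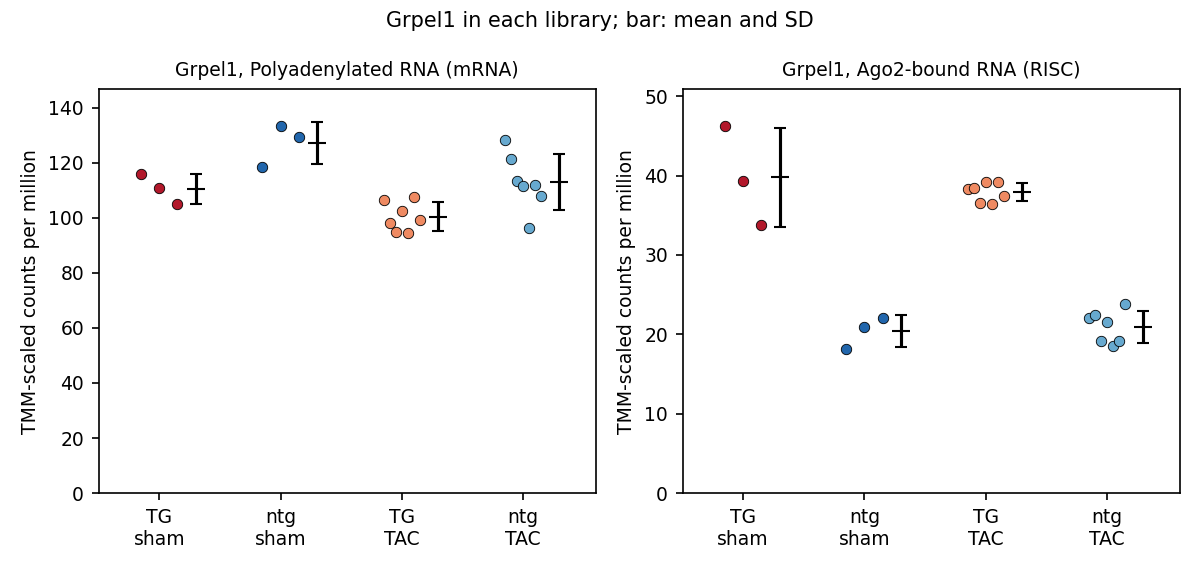
Grpel1 in TMM-scaled CPM in the mRNA library (left) and the RISC library (right) of each heart, by group. Each point is a library, and the bar gives mean and SD of 3 sham or 7 TAC hearts. In RISC all TG hearts sit between 33.8 and 46.3 CPM, above all ntg hearts at 18.2 to 23.8 CPM, while in mRNA the TG hearts sit at 94.4 to 116 CPM against 96.1 to 133 CPM.

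RISC relative to mRNA, the difference between the log2 fold changes of both kinds, was 1.16 for Grpel1 in sham hearts (SE 0.15, adjusted p = 2.75e-06) and 1.02 in TAC hearts (SE 0.10, adjusted p = 3.73e-10). By p Grpel1 ranked second of 14372 genes in both comparisons, and by fold it ranked 439 and 312. It was 1 of the 24 genes called higher in sham hearts and 1 of the 98 called higher in TAC hearts, and 15 genes were on both lists. It was the only member on both lists. With the heart as a block the values were 1.15 (adjusted p = 2.34e-06) and 1.03 (adjusted p = 1.15e-09). The TG effect after TAC minus that in sham was -0.11 for Grpel1 in RISC (SE 0.15, adjusted p = 0.871) and 0.03 in mRNA (SE 0.10, adjusted p = 0.954). TAC itself gave -0.07 in TG RISC (SE 0.10, adjusted p = 0.761) and 0.04 in ntg RISC (SE 0.11, adjusted p = 0.865). Between TG and ntg, Grpel2 and Hspa9 were not called in RISC. Grpel2, the paralog, gave a RISC log2 fold change of 0.01 in sham (SE 0.18, adjusted p = 0.991) and -0.14 in TAC hearts (SE 0.12, adjusted p = 0.478), and Hspa9 gave 0.30 (SE 0.13, adjusted p = 0.181) and 0.00 (SE 0.08, adjusted p = 0.991). Whether either differs from Grpel1 was not tested.

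In sham hearts Grpel1 was the only import gene called in RISC, 1 of 29 tested. Of all genes 5.81% were called there, 2.71% higher and 3.1% lower, and the median log2 fold change was 0.02 over the import genes and -0.01 over all genes. The replicate block, the refit without ntg TAC heart 5 and the refit without ntg TAC hearts 5 and 6 each gave 2 calls. With the length slope described below as a covariate 3 genes were called, Grpel1 and Tomm70a higher and Timm23 lower. The shares of all genes called in these refits are not given here. In RISC relative to mRNA Grpel1 was also 1 of 29 in sham hearts, against 0.244% of all genes (0.167% higher), and 1 of 29 in TAC hearts, against 0.946% (0.682% higher). With the heart as a block Timm23 was called lower in sham hearts (-0.78, adjusted p = 0.0351), which gives 2 calls, against 0.473% of all genes in that fit. In TAC hearts the block, which called 1.64% of all genes, added 3 calls: Timm10b (0.65, adjusted p = 0.0437) and Timm13 (0.68, adjusted p = 0.0407), both small Timm chaperones, and Timm23 (0.50, adjusted p = 0.0235). The signs for Timm23 were thus opposite in sham and TAC hearts.

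In RISC of TAC hearts 5 of 29 import genes were higher in TG and none lower, against 15.2% of all genes called (7.78% higher, 7.46% lower), and the median log2 fold change was 0.10 (0.01 over all genes). Beside Grpel1 these were Tomm40, Hspe1, Timm10 and Timm13. Tomm40, the channel of the outer membrane, read 9.26, 11.7 and 15.5 CPM (lowest, median, highest) in TG TAC hearts, against 6.04, 8.28 and 9.18 CPM in ntg TAC hearts. The groups did not overlap (log2 fold change 0.67, SE 0.13, adjusted p = 0.000547). Hspe1, the lid of the folding chamber, read 6.77, 9.47 and 11.2 CPM in TG, against 4.09, 6.30 and 8.49 CPM in ntg. Here the ranges overlapped (0.65, SE 0.15, adjusted p = 0.00203). Timm13 read 5.04, 6.60 and 7.98 CPM in TG, against 1.96, 4.37 and 5.10 CPM in ntg, and the lowest TG heart lay just under the highest ntg heart (0.78, SE 0.17, adjusted p = 0.00151). Timm10, a carrier of hydrophobic precursors with Timm9, read 6.60, 7.28 and 10.7 CPM in TG, against 3.27, 6.24 and 6.95 CPM in ntg (0.43, SE 0.14, adjusted p = 0.0400). The Timm10 ranges overlapped, and its call was lost without TG TAC heart 1, 6 or 7 or ntg TAC heart 2, 4, 5 or 6 (0.34 to 0.44, adjusted p 0.0504 to 0.106), and at 0.32 (adjusted p = 0.118) without both of the shallowest RISC libraries, ntg TAC hearts 5 and 6, an alternative chosen after seeing the data.

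Message length moved with these RISC differences. The length slope of a library, the slope of its log2 deviation from the gene mean on log2 exon length, averaged -0.06 ± 0.05 in TG TAC against 0.08 ± 0.05 in ntg TAC RISC libraries, and -0.04 ± 0.04 in TG sham against -0.01 ± 0.02 in ntg sham. A lower slope means relatively more short messages. The 7 tested import genes under 1000 exon bases had a median RISC log2 fold change of 0.41 in TAC hearts, against 0.07 for the 22 longer ones. With the slope as a covariate Grpel1, with 3338 exon bases, was called in RISC of TAC hearts at 0.70 (SE 0.14, adjusted p = 0.00573). The other 4 calls were lost: Hspe1 0.68 (adjusted p = 0.243), Tomm40 0.26 (adjusted p = 0.707), Timm13 0.17 (adjusted p = 0.869) and Timm10 -0.094 (adjusted p = 0.927). Slopes of TAC hearts met only at the edges, with -0.12 to 0.01 in TG and 0.0011 to 0.15 in ntg RISC libraries, so slope and genotype were nearly inseparable there.

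**Figure D2:**
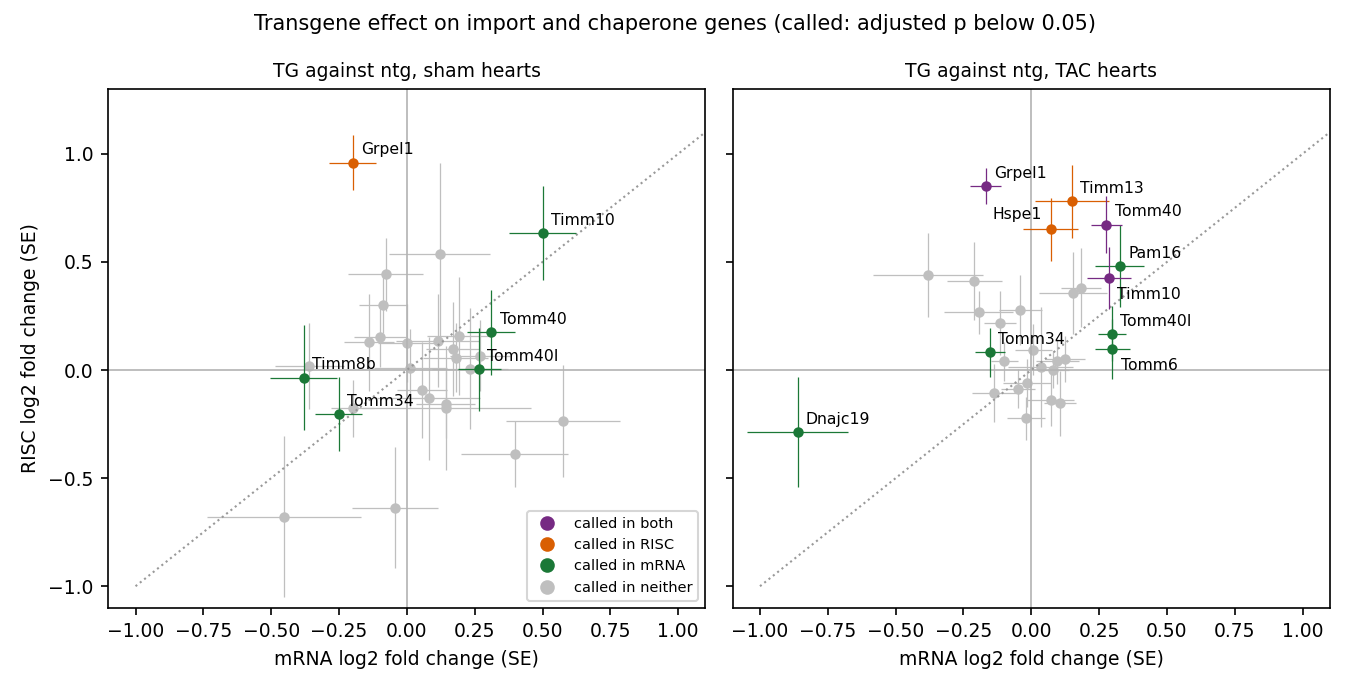
Log2 fold change of TG against ntg in RISC (vertical) and in mRNA (horizontal) for the 29 tested import and chaperone genes, in sham hearts (left) and TAC hearts (right). Bars are SE, colours show in which kind of library the adjusted p was below 0.05, and on the dotted line both changes are equal. Grpel1 lies at -0.20 in mRNA and 0.96 in RISC in sham hearts, and at -0.17 and 0.85 in TAC hearts.

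In all groups most import messages were sparse in RISC. In ntg sham hearts the log2 ratio of RISC to mRNA, set against the median gene, was below 0 for 25 of the 29 and above 0 for 4: the receptor Tomm70a (1.92 ± 0.25), the folding chamber Hspd1 (0.46 ± 0.11), Grpel2 (0.26 ± 0.20) and Hspa9 (0.03 ± 0.06; SD, n = 3). The lowest was Tomm7 at -3.63 ± 0.14. Grpel1 stood at -0.37 ± 0.14 in TG sham against -1.52 ± 0.11 in ntg sham hearts, and at -0.30 ± 0.05 in TG TAC against -1.32 ± 0.14 in ntg TAC hearts (n = 7 each), so it remained below the median gene in every group. In ntg sham hearts the ratio followed exon length, with Pearson's r = 0.74 over the 29 genes and 0.63 over 13269 genes. This is a description across genes of the same 6 libraries, and genes are not independent replicates.

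**Figure D3:**
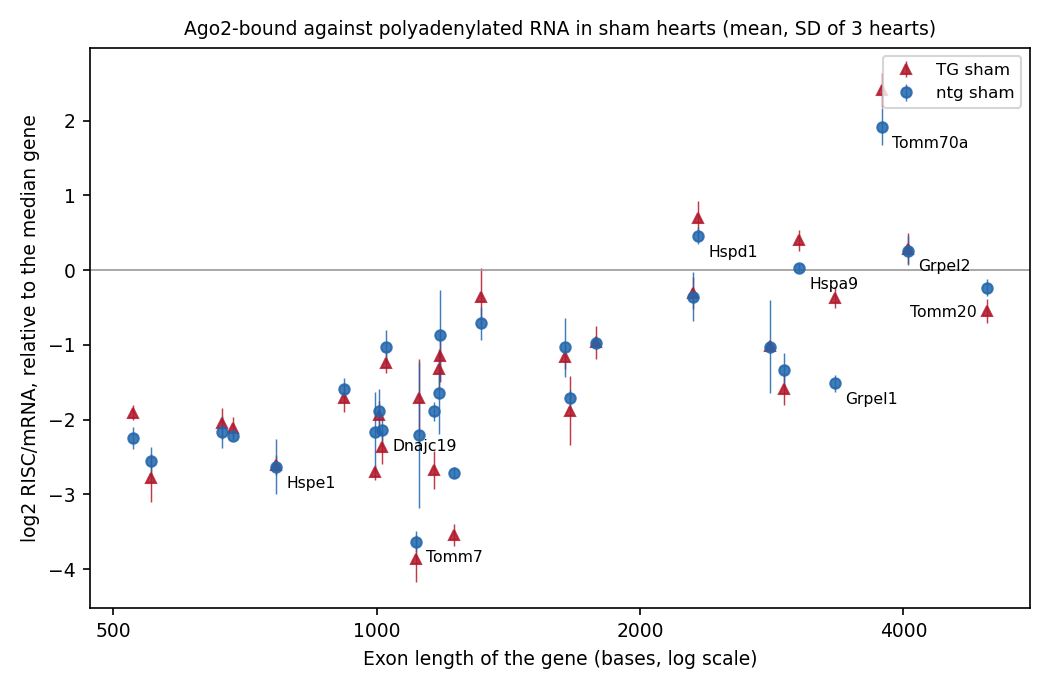
Log2 ratio of RISC to mRNA, relative to the median gene, against exon length on a log scale for the 29 genes in sham hearts. Points are means and bars SDs of 3 TG or 3 ntg hearts. The ratio is higher for longer messages, and Grpel1 stands at -0.37 in TG and -1.52 in ntg.

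In mRNA of sham hearts 5 of 29 import genes were called between TG and ntg, 3 higher and 2 lower, against 18.6% of all genes (9.17% higher, 9.41% lower), with a median log2 fold change of 0.08 (-0.01 over all genes). Both outer membrane channel genes were higher. Tomm40 read 91.9, 86.3 and 100.4 CPM in TG, against 74.6, 73.2 and 76.6 CPM in ntg (0.31, SE 0.09, adjusted p = 0.0151). Its paralog Tomm40l read 80.9, 87.9 and 83.4 CPM in TG, against 62.9, 73.6 and 73.1 CPM in ntg (0.27, SE 0.08, adjusted p = 0.0203). In neither did the groups overlap. Timm10 was also higher, at 78.5, 92.2 and 82.0 CPM in TG, against 63.6, 65.3 and 49.9 CPM in ntg (0.50, SE 0.12, adjusted p = 0.00589). Lower were Timm8b, a small Timm chaperone, at 58.2, 56.8 and 61.7 CPM in TG, against 77.6, 80.8 and 71.7 CPM in ntg (-0.38, SE 0.12, adjusted p = 0.0333), and the cytosolic helper Tomm34, at 23.1, 19.9 and 20.8 CPM, against 23.9, 28.4 and 24.0 CPM (-0.25, SE 0.09, adjusted p = 0.0424). No ntg value of these lay within the TG range. How many of all genes separate 3 from 3 hearts in this way was not counted.

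These sham calls rest on few hearts. Tomm40 was lost without TG sham heart 3 or ntg sham heart 2 (0.25 to 0.30, adjusted p 0.0521 to 0.0828), and Tomm40l without TG sham heart 2 or ntg sham heart 1 (0.20 to 0.23, adjusted p 0.0704 to 0.134). Timm10 was lost without ntg sham heart 3 (0.38, adjusted p = 0.0516). Timm8b was lost without any of the 3 TG sham hearts or ntg sham heart 1 or 2 (-0.41 to -0.34, adjusted p 0.0530 to 0.103), and Tomm34 without TG sham heart 2 or 3, ntg sham heart 2, TG TAC heart 3 or ntg TAC heart 7 (-0.25 to -0.17, adjusted p 0.0502 to 0.232). Without TG sham heart 3 or ntg sham heart 2 the count of calls was 2. With the adipocyte level as a covariate 2 calls were left, Tomm40 (0.38, adjusted p = 0.0461) and Timm8b (-0.54, adjusted p = 0.0340), and those for Timm10 (0.35, adjusted p = 0.176), Tomm40l (0.22, adjusted p = 0.217) and Tomm34 (-0.26, adjusted p = 0.173) were lost. Tomm34 was also lost by DESeq2 (-0.24, adjusted p = 0.0675) and without the filter on low counts (-0.23, adjusted p = 0.105). The matrix genes Hspa9 (-0.09, adjusted p = 0.527), Hspd1 (-0.10, adjusted p = 0.507), Hspe1 (0.11, adjusted p = 0.657), Pam16 (0.23, adjusted p = 0.262), Dnajc19 (-0.45, adjusted p = 0.293) and Grpel2 (0.01, adjusted p = 0.963) were not called.

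In mRNA of TAC hearts 8 of 29 were called between TG and ntg, 5 higher and 3 lower, against 25.3% of all genes (13.5% higher, 11.8% lower), with a median of 0.04 (0.00 over all genes). Tomm40l read 72.4, 77.8 and 83.1 CPM in TG, against 58.7, 63.6 and 70.7 CPM in ntg, without overlap (0.30, SE 0.05, adjusted p = 0.000146). Tomm40 read 68.9, 81.1 and 87.9 CPM in TG, against 61.9, 66.7 and 73.7 CPM in ntg, with overlap (0.28, SE 0.06, adjusted p = 0.000881). The small subunit Tomm6 read 43.2, 45.5 and 50.7 CPM in TG, against 34.4, 36.9 and 43.5 CPM in ntg (0.30, SE 0.06, adjusted p = 0.00126). Only the edges of the Tomm6 ranges met. Timm10 read 57.2, 64.0 and 71.7 CPM in TG, against 46.2, 50.5 and 68.6 CPM in ntg (0.29, SE 0.08, adjusted p = 0.0102). Pam16, a regulator of the motor, read 60.4, 66.7 and 91.4 CPM in TG, against 47.8, 55.8 and 66.8 CPM in ntg (0.33, SE 0.09, adjusted p = 0.0101), and both ranges overlapped.

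Dnajc19, the J-type partner whose loss in people causes a cardiomyopathy, had the lowest log2 fold change of the 29 in this comparison. It read 11.2, 16.7 and 22.8 CPM in TG TAC hearts, against 18.8, 29.1 and 37.6 CPM in ntg TAC hearts (-0.86, SE 0.18, adjusted p = 0.00211). The ranges overlapped, the neighbour Fxr1 was higher in TG (0.26, SE 0.06, adjusted p = 0.00357), and in RISC the difference was not called (-0.29, SE 0.25, adjusted p = 0.491). Tomm34 read 22.1, 22.9 and 24.0 CPM in TG, against 23.8, 25.0 and 27.4 CPM in ntg (-0.15, SE 0.05, adjusted p = 0.0426). Its call was lost without any 1 of 10 hearts, TG TAC 1, 2, 4, 5 and 6 and ntg TAC 1, 3, 4, 5 and 7 (-0.16 to -0.13, adjusted p 0.0515 to 0.0912), with the adipocyte level as a covariate (-0.15, adjusted p = 0.0528) and without the filter on low counts (-0.16, adjusted p = 0.0675). The third lower gene was Grpel1, given above. Hspa9 (0.08, adjusted p = 0.321), Hspd1 (-0.05, adjusted p = 0.608), Hspe1 (0.07, adjusted p = 0.654) and Grpel2 (0.07, adjusted p = 0.593) were not called.

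Whether TG against ntg differed after TAC from sham was tested directly. As sham and TAC hearts also differ in Xist and Y-linked RNA, such a difference cannot be told apart from one by sex. None of 29 was called by edgeR in mRNA, where 0.0849% of all genes were, or in RISC (0.342%). At an unadjusted p below 0.05 there were 2 in mRNA (Timm23 and Timm8b) and 5 in RISC (Timm10b, Timm13, Timm23, Tomm40 and Tomm70a), named here after their values were seen, against 10.2% of all genes in each kind. DESeq2 called none in mRNA and 1, Timm23, in RISC, where it called 0.937% of all genes. In RISC Timm23 read 21.5, 22.0 and 19.1 CPM in TG sham, against 25.5, 30.4 and 25.9 CPM in ntg sham, and 18.7, 20.1 and 23.4 CPM in TG TAC, against 12.3, 17.9 and 19.99 CPM in ntg TAC. The sham groups did not overlap, with TG lower, and the TAC groups did (difference of the effects 0.65, SE 0.18, adjusted p = 0.130 by edgeR).

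After TAC the messages of the folding chaperones were lower. TAC and sham hearts also differ in Xist and Y-linked RNA, so no TAC difference below can be told apart from one by sex. In mRNA of ntg hearts 4 of 29 import genes were lower after TAC and none higher, against 17.7% of all genes called (8.41% higher, 9.31% lower), with a median of -0.15 (-0.02 over all genes). In TG hearts 5 were lower and none higher, against 13.1% (6.57% higher, 6.56% lower), with a median of -0.14 (0.00 over all genes). Hspd1 and Hspe1 were called in both. The sum of the 31 genes was 2426 ± 134 CPM in TG TAC, against 2820 ± 59.0 CPM in TG sham, and 2366 ± 138 CPM in ntg TAC, against 2701 ± 183 CPM in ntg sham (SD, n = 7 and 3).

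Hspd1 and Hspe1 lie head to head on chromosome 1, Hspd1 on the minus strand from 55077834 to 55087932 and Hspe1 on the plus strand from 55088148 to 55091317 (mm10). The window of 250 bases before to 50 after the start of Hspe1 therefore also spans the start of Hspd1. It is shown, with that of Timm10, because Hspd1 and Hspe1 fell together and Timm10 was called in both kinds of library. The windows are from RefSeq on GRCm38.p6, plus strand, at chr1:55087898-55088197 for Hspe1 and chr2:84826771-84827070 for Timm10. Capitals mark matches to a heat shock motif (GAANNTTC or TTCNNGAA) and, in Timm10, to the ETS motif ACTTCCGG on the other strand, which shares letters with the heat shock match.
Hspe1: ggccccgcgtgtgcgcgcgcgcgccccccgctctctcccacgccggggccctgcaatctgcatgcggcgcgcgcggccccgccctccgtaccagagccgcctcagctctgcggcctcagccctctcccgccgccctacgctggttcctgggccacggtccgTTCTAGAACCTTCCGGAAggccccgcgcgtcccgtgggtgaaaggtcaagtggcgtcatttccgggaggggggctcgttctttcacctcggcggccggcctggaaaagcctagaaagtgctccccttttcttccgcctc
Timm10: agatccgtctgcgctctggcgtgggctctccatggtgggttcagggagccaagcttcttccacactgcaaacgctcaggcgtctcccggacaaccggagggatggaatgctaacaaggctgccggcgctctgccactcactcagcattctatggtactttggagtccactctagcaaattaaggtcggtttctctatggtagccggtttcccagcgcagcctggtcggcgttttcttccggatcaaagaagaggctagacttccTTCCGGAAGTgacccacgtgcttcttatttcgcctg
Windows of 26 of the 31 import genes were searched. The heat shock letters were found on either strand in 8 of the 26 (30.8%), against 17.0% of 27025 genes. Hspd1 and Hspe1 are both among the 8. Their windows overlap, so they do not count as independent, and the import share was not recounted with them as 1. The ETS letters stood in 5 of 26 (19.2%), against 4.31%, and those of NRF1, a regulator of nuclear genes for mitochondria (GCGC, any base, TGCGC), in 4 of 26 (15.4%), against 5.19%. A match of letters is a description and not a binding site.

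In mRNA Hspd1 read 129, 142 and 159 CPM (lowest, median, highest) in TG TAC hearts, against 166, 202 and 201 CPM in the 3 TG sham hearts. The groups did not overlap (-0.38, SE 0.08, adjusted p = 0.00317). It read 143, 152 and 163 CPM in ntg TAC hearts, against 214, 219 and 176 CPM in ntg sham hearts, again without overlap (-0.43, SE 0.08, adjusted p = 0.000564). No single left-out heart ended either Hspd1 call. Hspe1 read 67.8, 94.97 and 124.2 CPM in TG TAC, against 123.9, 140.7 and 123.9 CPM in TG sham (-0.48, SE 0.13, adjusted p = 0.0165). TG TAC heart 1, at 124.2 CPM, was the 1 heart within the sham range. In ntg hearts Hspe1 read 78.0, 83.8 and 99.998 CPM after TAC, against 124, 130 and 104 CPM in sham, without overlap (-0.44, SE 0.13, adjusted p = 0.0215). The Hspe1 call was lost without TG sham heart 2 in TG (-0.42, adjusted p = 0.0900) and without ntg sham heart 1 or 2 in ntg hearts (-0.41 to -0.37, adjusted p 0.0942 to 0.124).

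The motor genes Hspa9 and Timm44, its anchor at the membrane, were also lower after TAC in ntg hearts. Hspa9 read 451, 492 and 512 CPM in ntg TAC, against 595, 649 and 569 CPM in ntg sham (-0.31, SE 0.07, adjusted p = 0.00436), and Timm44 read 108, 111 and 121 CPM, against 129, 137 and 133 CPM (-0.24, SE 0.07, adjusted p = 0.0125). Neither overlapped. Both were lost without ntg sham heart 2 (Hspa9 -0.26, adjusted p = 0.0541; Timm44 -0.22, adjusted p = 0.0750), where 1 call was left, and with the adipocyte level as a covariate (-0.30, adjusted p = 0.0619, and -0.27, adjusted p = 0.0576), where Hspd1 and Hspe1 were left. In TG hearts Hspa9 read 462, 504 and 551 CPM after TAC, against 510, 579 and 617 CPM in sham, with overlap (-0.14, SE 0.07, adjusted p = 0.210), and Timm44 gave -0.14 (SE 0.07, adjusted p = 0.166). The difference between the genotypes was 0.17 for Hspa9 (SE 0.11, adjusted p = 0.611) and 0.10 for Timm44 (SE 0.09, adjusted p = 0.771).

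**Figure D4:**
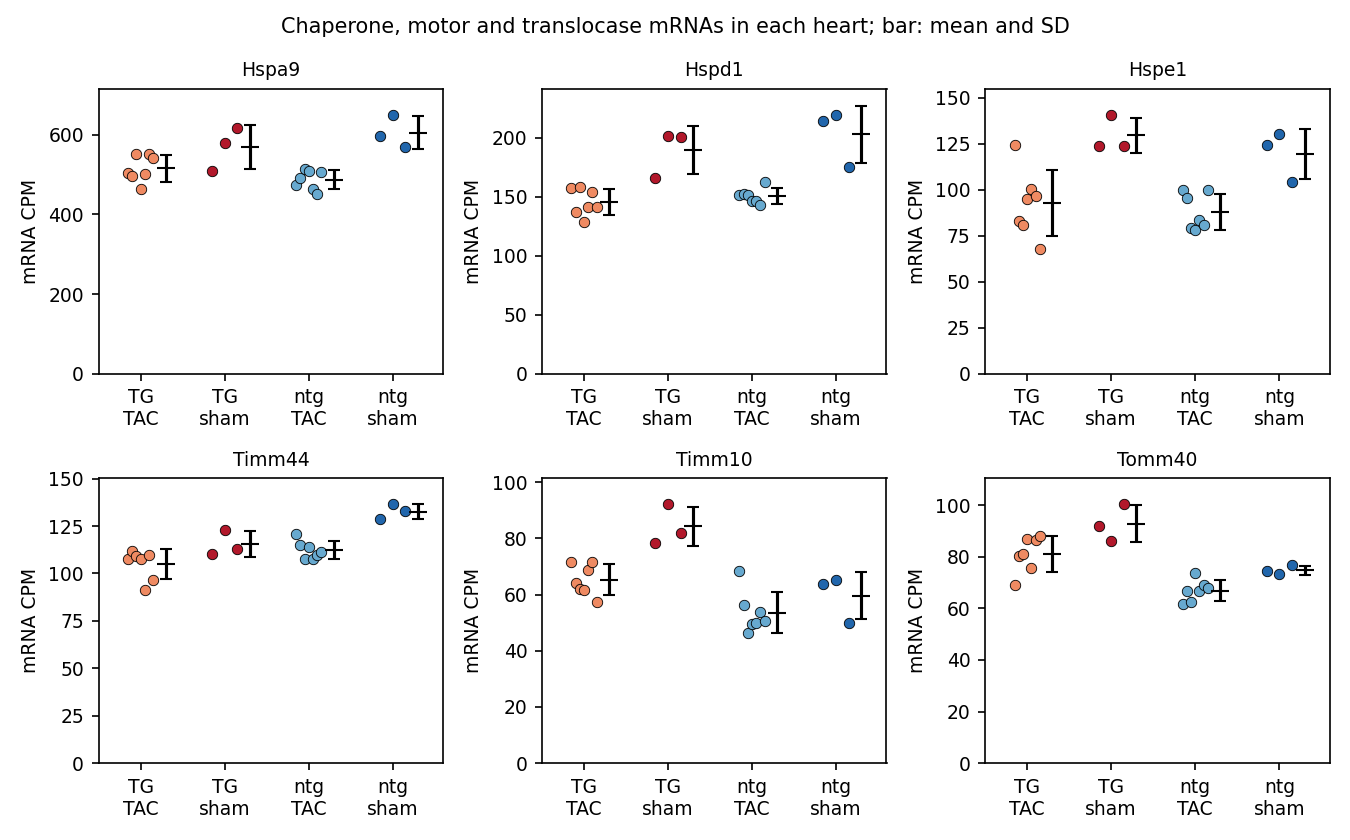
mRNA level in CPM of Hspa9, Hspd1, Hspe1, Timm44, Timm10 and Tomm40 in each heart, by group, with TAC left of sham and TG left of ntg. Points are hearts, and the bar gives mean and SD of 7 TAC or 3 sham hearts. Hspd1 lies at 129 to 163 CPM in all TAC hearts, against 166 to 219 CPM in all sham hearts.

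Further genes were lower after TAC in TG mRNA. Timm10 was at the values given above, 57.2 to 71.7 CPM in TG TAC against 78.5 to 92.2 CPM in TG sham (-0.37, SE 0.10, adjusted p = 0.0181). Timm23 read 150, 201 and 248 CPM in TG TAC, against 357, 253 and 263 CPM in TG sham (-0.53, SE 0.16, adjusted p = 0.0339), and the receptor Tomm20 read 35.9, 41.6 and 49.9 CPM, against 52.8, 56.2 and 51.2 CPM (-0.32, SE 0.09, adjusted p = 0.0222). None of the 3 overlapped, a description for which no share over all genes was counted. Timm10 was lost without TG sham heart 2 (-0.30, adjusted p = 0.116), Tomm20 without TG sham heart 1 or 2 (-0.32 to -0.28, adjusted p 0.0634 to 0.107), and Timm23 without TG sham heart 1 or 3 or TG TAC heart 3, 5, 6 or 7 (-0.60 to -0.36, adjusted p 0.0514 to 0.223) or without the filter on low counts (-0.53, adjusted p = 0.0566). Without TG sham heart 1 or 2 the count of calls was 3 or 2. In ntg hearts Timm23 gave 0.06 (SE 0.17, adjusted p = 0.854) and Tomm20 -0.15 (SE 0.09, adjusted p = 0.267). The remaining matrix genes were not called after TAC: Grpel1 gave -0.14 in TG (adjusted p = 0.212) and -0.17 in ntg (adjusted p = 0.108), Grpel2 -0.17 and -0.22, Pam16 -0.11 and -0.20, and Dnajc19 -0.47 and -0.06.

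In RISC 3 of 29 genes were lower after TAC in ntg hearts and none higher, against 10.9% of all genes (5.54% higher, 5.39% lower), with a median of -0.27 (0.00 over all genes). Timm23 read 12.3, 17.9 and 19.99 CPM in ntg TAC, against 25.5, 30.4 and 25.9 CPM in ntg sham, without overlap (-0.67, SE 0.13, adjusted p = 0.000466). Hspe1 read 4.09, 6.30 and 8.49 CPM, against 7.19, 9.89 and 9.60 CPM, with overlap (-0.60, SE 0.19, adjusted p = 0.0309), and Timm44 read 22.0, 24.3 and 26.1 CPM, against 31.7, 31.5 and 29.5 CPM, without overlap (-0.34, SE 0.11, adjusted p = 0.0430). Hspe1 was lost without ntg TAC heart 1, 6 or 7 or ntg sham heart 2 or 3 (-0.54 in each, adjusted p 0.0535 to 0.136), and Timm44 without ntg TAC heart 1, 3, 5 or 7 or any ntg sham heart (-0.37 to -0.33, adjusted p 0.0521 to 0.142). Hspe1 was also lost with the adipocyte level as a covariate (-0.43, adjusted p = 0.184). Timm44 was lost without the filter on low counts (-0.35, adjusted p = 0.0592) and without both of the shallowest RISC libraries (-0.35, adjusted p = 0.0572). Without ntg TAC heart 1 or 7 or ntg sham heart 2 or 3 only 1 call was left. With the length slope as a covariate the calls for Timm23 (-0.48, adjusted p = 0.0693), Hspe1 (-0.62, adjusted p = 0.166) and Timm44 (-0.34, adjusted p = 0.208) were lost and Hspd1 was the 1 gene called. Without a covariate Hspd1 was not called (-0.33, SE 0.12, adjusted p = 0.0617), and with the adipocyte level it was (-0.40, adjusted p = 0.0350).

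In TG RISC 2 genes were lower and 1 higher after TAC, against 8.56% of all genes (4.72% higher, 3.84% lower), with a median of -0.07 (0.02 over all genes). Hspd1 read 81.9, 89.5 and 119 CPM in TG TAC, against 130, 128 and 167 CPM in TG sham, without overlap (-0.57, SE 0.11, adjusted p = 0.00161). Hspa9 read 243, 248 and 349 CPM, against 318, 323 and 401 CPM, with overlap (-0.36, SE 0.11, adjusted p = 0.0302). The small chaperone Timm10b was higher, at 2.84, 3.08 and 4.51 CPM, against 2.15, 2.00 and 1.76 CPM, without overlap (0.75, SE 0.24, adjusted p = 0.0434). Hspa9 and Timm10b were lost without TG TAC heart 1, 3, 4, 5 or 7 or TG sham heart 2 or 3, and Timm10b also without TG sham heart 1 (Hspa9 -0.41 to -0.25, adjusted p 0.0513 to 0.255; Timm10b 0.65 to 0.82, adjusted p 0.0523 to 0.188), and in the first 7 of these refits Hspd1 was the 1 gene called. With the adipocyte level as a covariate Hspa9 (-0.32, adjusted p = 0.0547) and Timm10b (0.68, adjusted p = 0.0873) were lost too, as they were with the length slope (-0.31, adjusted p = 0.0503, and 0.67, adjusted p = 0.0687). Timm10b was also lost without the filter on low counts (0.73, adjusted p = 0.0772). RISC relative to mRNA gave no call by edgeR for TAC against sham in TG or ntg hearts, where 0.0278% and 0.0209% of all genes were called. At an unadjusted p below 0.05 there were 4 of 29 in TG and 1 of 29 in ntg hearts, against 9.4% and 9.62% of all genes. DESeq2 called 1 in TG, Timm13, against 0.64% of all genes, and none in ntg hearts. The heart block called Timm13 (0.98, adjusted p = 0.0458) in TG, against 0.237% of all genes, and none in ntg hearts.

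Other genes of import and mitochondrial protein quality control, 34 of 35 listed with a tested level, were compared in the same fits. In mRNA of sham hearts 3 were higher in TG (Gfer 0.41, Phb 0.35, Spg7 0.28), against 9.17% of all genes, and 1 lower, against 9.41%, Afg3l2, a protease of the inner membrane (-0.49, SE 0.07, adjusted p = 3.79e-05). In mRNA of TAC hearts, where 13.5% of all genes were higher and 11.8% lower, 7 were higher, among them the matrix protease Lonp1 (0.28, SE 0.06, adjusted p = 0.000585) and Spg7, a partner of Afg3l2 (0.33, SE 0.06, adjusted p = 0.000392), and 3 lower, among them Afg3l2 (-0.39, SE 0.05, adjusted p = 1.80e-06). In RISC of TAC hearts 8 were higher and none lower, against 7.78% and 7.46% of all genes, including Dnajc15, a J-type relative of Dnajc19 (0.67, SE 0.15, adjusted p = 0.00164), Romo1 (0.57, SE 0.18, adjusted p = 0.0241), Phb (0.43, SE 0.09, adjusted p = 0.00109) and Trap1, a matrix chaperone (0.38, SE 0.09, adjusted p = 0.00230). Whether these RISC calls hold with the length slope as a covariate is not given here. In RISC of TAC hearts slope and genotype were nearly inseparable. RISC relative to mRNA called 3 genes of this list in TAC hearts, against 0.946% of all genes, and none in sham hearts. They were Trap1 (0.63, SE 0.12, adjusted p = 0.00130), Oxa1l (0.36, SE 0.09, adjusted p = 0.0224) and Afg3l2 (0.34, SE 0.09, adjusted p = 0.0336). After TAC 4 were lower in mRNA of TG hearts and 4 in ntg hearts, against 6.56% and 9.31% of all genes, with the outer membrane sorting gene Mtx1 at -0.56 and -0.51 and Mtx3 at -0.56 and -0.45.

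Of 14 genes of the mitochondrial stress response 13 were tested. In TG against ntg sham mRNA Sesn2 (0.59) and Aldh18a1 (0.54) were higher and Chac1 (-1.54) and Psat1 (-0.98) lower, 4 of 13 against 18.6% of all genes. In TAC mRNA the transcription factor Ddit3 (0.59, SE 0.10, adjusted p = 0.000226) and the secreted factor Gdf15 (0.98, SE 0.33, adjusted p = 0.0358) were higher and Chac1 lower (-0.98, SE 0.22, adjusted p = 0.00202), 3 of 13 against 25.3% of all genes. After TAC the stress list had 1 gene called in mRNA in each genotype, Psat1 in TG (0.87) and Aldh18a1 in ntg hearts (0.56), both higher, against 13.1% of all genes called in TG and 17.7% in ntg hearts.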

How the data were processed

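Hearts gave 20 mRNA and 20 RISC libraries. Each deposited file lists raw read counts by gene symbol. Per the submitters' processing notes, TopHat2 2.0.10, Bowtie2, HTSeq, DESeq and edgeR were used on mm10; per the labels' protocols the libraries are single-end and keep no strand. Rows for reads shared by several genes or with several places in the genome, a mean of 11.5% of mRNA and 4.09% of RISC reads, were left out. Members and lists were chosen with earlier results of these data known. Grpel1, Grpel2, Hspa9, Hspd1, Hspe1, Pam16 and Dnajc19 are named in each mRNA comparison of TG with ntg and of TAC with sham. In RISC they are named only in part. Also named are up to 8 called members each way whose mean reached 1 CPM, and up to 4 called genes of each further list.

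Each kind was fitted with all 4 groups, and RISC relative to mRNA in 1 fit of 40 libraries (R 4.3.3, edgeR 4.0.16: filterByExpr, TMM, robust quasi-likelihood test). Benjamini-Hochberg adjustment ran over all 14141 mRNA, 13451 RISC or 14372 joint genes, and a call is an adjusted p below 0.05. The SE is the log2 fold change over the square root of F. Whether groups overlap is a description. The share of all genes without overlap was not counted, so absence of overlap is no further support for a call. The biological coefficient of variation was 12.9% in mRNA, 16.6% in RISC and 14.6% jointly. The scripts were tested on simulated data.

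Alternatives were RLE scaling, no low-count filter, DESeq2 1.42.0, a replicate or heart block, adipocyte level or length slope as a covariate, and leaving out each heart. Animal codes join both libraries of a heart in 20 of 20 hearts. Over 7799 genes their deviations correlated with a median of 0.174 (-0.0345 to 0.334), above 0.1 in 15. No statement of the labels ties a replicate number to a litter or day. Exon lengths and positions come from the authors' gene models.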

Additional observations from a re-analysis of the deposited data

Results flagged for a closer look

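In 116 groups of 7 TAC hearts, 1 for each tested import gene, genotype and kind of library, the lowest or highest heart stood apart from the rest in 5. Chance gives about 1 in 20 such groups. In mRNA, Timm8b stood at 83.6 CPM in TG TAC heart 6, with the nearest heart at 67.6 CPM, and Timm10b at 42.4 CPM in ntg TAC heart 1, with the nearest at 31.9 CPM. In RISC, Dnajc19 stood at 2.50 CPM in TG TAC heart 1, with the nearest at 1.78 CPM. In RISC of ntg TAC heart 5, Timm10 stood at 3.27 CPM, with the nearest at 5.90 CPM, and Tomm22, a receptor, at 9.15 CPM, with the nearest at 14.4 CPM. Heart 5 is 1 of the 2 with the shallowest RISC libraries; the part of depth was not tested.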

How the results depend on the processing

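RLE scaling and leaving out the low-count filter kept all 14 counts of called import genes within 1.5 times. Leaving out both of the shallowest RISC libraries, chosen after seeing the data, kept within that range the 4 counts that set ntg TAC hearts directly against another group. Without those libraries TG against ntg in sham RISC had 2 calls, Grpel1 and Timm10, in place of 1. TAC against sham in TG RISC had 4 in place of 3. Of 36 single calls, 5 were lost without the filter and 2 of 9 without those libraries, all given above. With the adipocyte level as a covariate the count for TG against ntg in sham mRNA was 2, that for TAC against sham in ntg mRNA 2 and that in TG RISC 1. With the length slope as a covariate the count was 8 in TG against ntg sham mRNA, 3 in sham RISC and 1 in TAC RISC, and 1 each in RISC of ntg and of TG hearts for TAC against sham. Timm10 in RISC of TAC hearts turned to -0.094 with that slope. DESeq2 gave 1 call for the TG effect after TAC minus that in sham in RISC, and 1 for TAC against sham in TG RISC relative to mRNA. The heart block gave 2 and 4 calls for TG against ntg in sham and TAC RISC relative to mRNA, and 1 for TAC against sham in TG. With the replicate number as a block, TG against ntg in sham RISC had 2 calls, and 8 of 36 single calls were not past the threshold: Hspe1 (adjusted p = 0.0588 in TG, 0.0809 in ntg), Tomm20 (0.0589, TG) and Timm44 (0.0781, ntg) for TAC against sham in mRNA, Timm44 (0.110, ntg) and Timm10b (0.0561, TG) in RISC, and Tomm34 for TG against ntg in sham (0.0742) and TAC (0.0759) mRNA. Whether the numbers pair hearts across genotypes cannot be settled from so few pairs. The correlations of same-numbered hearts had medians of -0.0382 (sham) and 0.0165 (TAC) in mRNA and 0.0815 and 0.114 in RISC. They were above 0.1 in 0 of 3, 3 of 7, 0 of 3 and 4 of 7, and ran from 0.0519 to 0.192 in TAC RISC. The same-numbered heart was the best match in 0 of 3, 1 of 7, 2 of 3 and 2 of 7. Leaving out each heart in turn gave 2 to 7 calls for TG against ntg in sham mRNA, 6 to 8 in TAC mRNA, 1 to 2 in sham RISC and 4 to 6 in TAC RISC. For TAC against sham it gave 1 to 5 in ntg mRNA, 2 to 6 in TG mRNA, 1 to 4 in ntg RISC and 1 to 4 in TG RISC, and for RISC relative to mRNA 1 in sham, 1 to 2 in TAC (2 without TG TAC heart 4 or ntg TAC heart 5) and 0 elsewhere, and 0 for the TG effect after TAC minus that in sham in either kind. Grpel1 in RISC, alone and relative to mRNA, was called in every one of the 20 refits for sham and for TAC hearts (RISC 0.84 to 1.07 and 0.83 to 0.89). Except for DESeq2 and the heart block, the share of all genes called in these refits is not given here. Whether a shifted count is particular to the import genes was therefore not tested. Other causes of these shifts were not tested. Groups of 3 sham hearts, and RISC levels of a few CPM, limit the precision.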
